A study of Mus musculus with 24 samples.

Results

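Stem and progenitor cells of mice that lack Fancg were compared after poly(I:C) and after PBS, the vehicle. The comparison holds 7 of the 24 libraries of the series, chosen by the genotype and treatment in the labels: 3 FancgKO libraries with poly(I:C) (replicates 6, 7 and 8) and 4 FancgKO libraries with PBS (replicates 2, 4, 6 and 7). All 7 lack Fancg and none carries the Mdm4 transgene of the series. The remaining libraries come from WT mice (7 libraries), from Mdm4Tg mice (5) and from FancgKO_Mdm4Tg mice (5), which also lack Fancg, each group again with poly(I:C) or PBS. The tissue is bone marrow, and the design names sorted LSK cells, which are negative for lineage antigens and positive for Sca-1 and Kit. The labels give no strain, age, sex, dose or time, and no statement that replicates are separate animals. The p-values therefore reflect the spread within groups among the 24 libraries of the series, which may be technical. The knockout allele is not described either.

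FANCG belongs to the core complex of the Fanconi anaemia pathway, a nuclear ligase that marks FANCD2 and FANCI so that DNA crosslinks can be repaired. Poly(I:C) is a synthetic double-stranded RNA that mimics a viral infection. It is sensed in the endosome by TLR3 and in the cytosol by RIG-I and MDA5, and the type I interferon that follows wakes dormant blood stem cells into division. In Fanconi-deficient mice this forced cycling is a common way to stress the stem cell pool. The comparison therefore asks what poly(I:C) does to the transcripts of LSK cells that lack this repair complex, and whether it differs from what it does in cells that have it.

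Polyadenylated RNA was sequenced, and values are the authors' normalised counts per gene. A gene was tested where at least 2 of the 24 libraries had a normalised count of 10 or more, which kept 12628 of 26267 genes. The 3 poly(I:C) libraries held 5267584, 2300578 and 6677985 reads, against 1567118, 1382056, 1728839 and 807686 reads in the 4 PBS libraries, always in the order of the replicate numbers above. Every poly(I:C) library was thus deeper than every PBS library, and 1 read is worth a normalised count of 3.27 in the shallowest one, PBS 7. The Xist RNA of the silenced X chromosome was at 13767, 363 and 0 in the poly(I:C) libraries, against 1.57, 0, 7800 and 18007 in the PBS libraries, so the groups mix libraries with and without it. The ribosomal RNA gene CT010467.1 took 0.218, 0.898 and 0.510% of reads with poly(I:C), against 3.94, 6.13, 0.546 and 3.19% with PBS. Sample names end in d for replicates 6 and 7 of both groups and in d_2 for poly(I:C) 8, PBS 2 and PBS 4. What that ending stands for is not given.

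The label was checked against markers of the sort gate. Kit, the stem cell factor receptor of the gate, had 1502, 2075 and 1562 with poly(I:C), against 1869, 1895, 1762 and 1842 with PBS. Ly6a, which encodes Sca-1, had 23.5, 28.2 and 22.4 with poly(I:C), against 34.5, 24.2, 11.7 and 32.7 with PBS. Both gate genes were thus detected in all 7 libraries, and for both the groups overlapped. The stem cell gene Mecom was at 52.9, 206 and 60.7 with poly(I:C), against 222, 186, 95.0 and 169.9 with PBS. Several defining genes of mature cells were near 0: Ms4a1 of B cells, Cd3e of T cells and Ncr1 of NK cells had no read in any of the 7 libraries, and Ltf and Camp of mature neutrophils, C1qa of macrophages and Col1a1 of stroma stayed at a normalised count of at most 3.73. Immunoglobulin transcripts of the B lineage were present and differed by library. The heavy chain gene Ighm had 154, 179 and 305 with poly(I:C), against 520.0, 332, 215 and 163 with PBS, and the kappa chain gene Igkc had 1.50, 0 and 18.6 with poly(I:C), against 135, 55.9, 11.7 and 0 with PBS. PBS 2 and PBS 4 were highest for both, and the part of B lineage cells in the results was not tested. Fancg itself was still counted, at 49.4, 59.7 and 48.9 with poly(I:C), against 31.3, 67.1, 46.7 and 26.1 with PBS. In WT libraries it lay between 61.45 and 78.4, and since the table sums a whole gene, reads outside a deleted part would still be counted and this value is no check of the knockout.

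No gene was called for poly(I:C) against PBS in FancgKO cells. With limma and Benjamini-Hochberg adjustment over 12628 genes, 0 genes (0.0%) passed an adjusted p of 0.05, and the smallest adjusted p was 0.682. At an unadjusted p under 0.05 the same fit held 426 genes higher (3.37%) and 488 lower (3.86%), 914 in all, while edgeR and DESeq2 on the recovered reads also called 0 and held 1066 and 954. All 3 poly(I:C) libraries lay above all 4 PBS libraries for 229 genes (1.81%) and below them for 308 (2.44%). Since every poly(I:C) library is deeper, reads were also thinned to the shallowest library, where 278 and 360 genes were apart, and 73 and 119 were apart both before and after thinning. In FancgKO 663 tested genes reached a count of 10 only with PBS and 154 only with poly(I:C). Among the 7597 genes with a mean of at least 50 in either group, 295 were higher and 250 lower at an unadjusted limma p under 0.05. Of these 7597, 154 were apart above and 135 below. The excess of lower genes was thus absent there. The standard error of a log2 difference had a median of 0.203 among genes with a mean normalised count of at least 50 in either group. It rests on 1 variance per gene, pooled over the 8 groups of all 24 libraries. WT cells, also 3 against 4 libraries, have the same 0.203 by construction, which does not compare the spread of the 2 genotypes. With only the 7 FancgKO libraries in the fit, 574 genes were at an unadjusted p under 0.05, in place of 914. Single libraries moved the count at an unadjusted p under 0.05: it was 251, 1700 and 537 without poly(I:C) 6, 7 and 8, and 587 and 1495 without PBS 2 and PBS 6. No gene below is therefore a call. Every difference is a log2 value on the scale of normalised count plus 1, as poly(I:C) minus PBS (n = 3 and 4). It is given with its standard error from the pooled variance, and its limma adjusted p lies between 0.682 and 1.0. Counts of list members can be read against the shares of all genes given here, 3.37 and 3.86% for an unadjusted p under 0.05 and 1.81 and 2.44% for groups apart.

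The direction of the differences could be set against the 3 other genotypes, which share no library with FancgKO. Averaged over WT, Mdm4Tg and FancgKO_Mdm4Tg, poly(I:C) called 1105 genes higher (8.75%) and 1087 lower (8.61%) with limma at an adjusted p of 0.05. Below, a gene called in the other genotypes is called in this mean, not in each genotype. FancgKO_Mdm4Tg, which is part of it, also lacks Fancg, so the mean does not stand for cells that have the gene. The mean draws on more libraries, and its standard error is smaller, for Ms4a2 0.24 against 0.37 in FancgKO. Its number of calls is therefore not comparable with the 0 in FancgKO. Alone, WT, Mdm4Tg and FancgKO_Mdm4Tg gave a limma adjusted p of 0.049, 0.092 and 0.28 for Trib2. For Ms4a2 it was 0.061, 0.092 and 0.28. In FancgKO, 1081 of the 1105 were also positive (97.8%) and 1046 of the 1087 negative (96.2%), beside a same sign for 77.4% of all 12628 genes and 73.3% of the 10436 genes not called. The 4 genotypes share replicate numbers and name endings, and genes are not independent of each other, so these shares carry no p. They also share library differences. The ribosomal RNA gene CT010467.1 was lower with poly(I:C) in the mean of the other genotypes too, by -2.09 ± 0.44. Median depth was higher with poly(I:C) in every genotype, in WT 3234857 against 2196949 reads. The part of either in the shared direction was not tested. The size was smaller in FancgKO for 1015 of the 1105 and 992 of the 1087 genes, with a median of 0.36 in FancgKO against 0.57 in the other genotypes for the first set and -0.43 against -0.71 for the second. Genes chosen for passing in one data set tend to be larger there, so this comparison of sizes is a description. The difference itself was called for 0 genes (0.0%), both against WT and against the mean of the 3 other genotypes, with 128 and 141 genes at an unadjusted p under 0.05 and a smallest limma adjusted p of 1.0 in both. Its median standard error was 0.242 against the mean of the other genotypes, and 0 calls do not show that the responses are alike.

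Library by library, the response was uneven. Over the 1105 genes called higher elsewhere, the median log2 level relative to the mean of the PBS libraries was 0.58, 0.06 and 0.44 in poly(I:C) 6, 7 and 8, against -0.27, -0.07, 0.27 and 0.09 in PBS 2, 4, 6 and 7. Over the 1087 genes called lower it was -0.71, -0.09 and -0.46 with poly(I:C), against 0.28, 0.12, -0.29 and -0.08 with PBS. Poly(I:C) 6 and 8 lay outside the PBS range in both sets and poly(I:C) 7 lay inside it, while PBS 6 was the PBS library nearest to poly(I:C) 6 and 8. Within the libraries ending in d, 2 against 2, the medians of the 2 sets were 0.13 and -0.20, and within those ending in d_2, 1 against 2, they were 0.61 and -0.68. Poly(I:C) 7 set against PBS 7 alone gave -0.03 and 0.00, with 505 of the 1105 genes higher, whereas poly(I:C) 6 against PBS 6 gave 0.30 and -0.42, with 1014 higher. The share of reads on CT010467.1 follows part of this order, being lowest in poly(I:C) 6 and low in PBS 6 and poly(I:C) 8, and its part in the result was not tested.

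**Figure D1:**
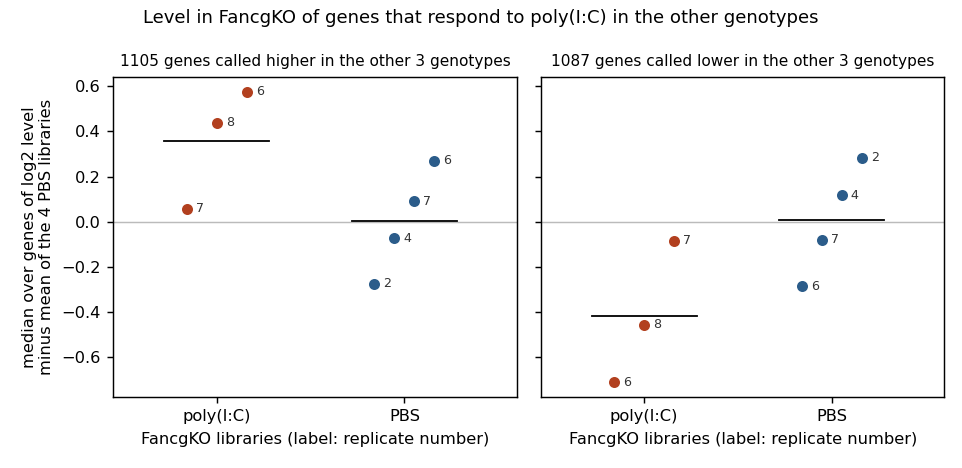
Median log2 level, relative to the mean of the 4 PBS libraries, of the 1105 genes called higher (left) and the 1087 called lower (right) by poly(I:C) in the other genotypes, in each FancgKO library; points are libraries labelled by replicate number and bars are group means. Poly(I:C) 6 and 8 lie beyond the PBS libraries in both panels, and poly(I:C) 7 lies among them.

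Granulocyte genes had the largest positive median among the gene lists when all 7 libraries were used. The mast cell and basophil list was larger without poly(I:C) 6, at 0.85, and within the ending d, at 0.44. Of 24 tested genes of granulocyte progenitors, 23 were positive with a median of 1.23, against 6619 of 12628 genes and 0.02 over all genes, and 14 were at an unadjusted p under 0.05, against 3.37% of all genes. In FancgKO 2 of the 24, S100a8 among them, reached the filter's level of 10 only with poly(I:C), and over the 22 that reached it in both groups 21 were positive with a median of 1.17. None of the 24 had its groups apart. In the other genotypes these genes had a median of 1.57, and 21 of 24 were called higher there, against 8.75% of all genes. Ms4a3, a membrane protein gene of granulocyte and monocyte progenitors, had 749, 81.4 and 565 with poly(I:C), against 25.1, 54.0, 269 and 78.4 with PBS, a difference of 2.14 ± 0.79. Fcgr3, an Fc receptor gene for IgG, had 137, 13.0 and 77.8 with poly(I:C), against 4.70, 3.73, 52.6 and 6.53 with PBS, a difference of 2.39 ± 0.84. In both genes poly(I:C) 6 and 8 were highest, PBS 6 came next and then poly(I:C) 7. Mpo, the myeloperoxidase of the primary granules and the most abundant gene of the list, had 16377, 4625 and 9875 with poly(I:C), against 1589.9, 2526, 10485 and 4740.2 with PBS, a difference of 1.27 ± 0.62. Alas1, the housekeeping first enzyme of haem synthesis, stood at 1.26 ± 0.47 and Gstm1, a glutathione transferase, at 1.01 ± 0.38. Without poly(I:C) 7 the list median was 1.76, without poly(I:C) 6 it was 0.80, and within the endings d and d_2 it was 0.31 and 2.28. The secondary granule genes Ltf and Camp, which mark mature neutrophils, were at or near 0 in all 7 libraries, and S100a8 reached 12.0, 1.09 and 17.1 with poly(I:C), against 0, 0, 1.46 and 0 with PBS.

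Monocyte genes followed the same libraries. Of 14 tested genes, 12 were positive with a median of 0.75, 3 at an unadjusted p under 0.05, beside 1.13 in the other genotypes, and over the 12 that reached a count of 10 in both groups 10 were positive with a median of 0.62. Ly6c2, which encodes the Ly6C antigen of inflammatory monocytes, had 493, 49.9 and 583 with poly(I:C), against 21.9, 31.7, 216 and 71.9 with PBS, a difference of 2.06 ± 0.89. Ccr2, the receptor that draws monocytes out of the marrow, had 503, 144 and 846 with poly(I:C), against 127, 134, 282 and 84.9 with PBS, a difference of 1.47 ± 0.56. Poly(I:C) 6 and 8 exceeded all PBS libraries for both genes and poly(I:C) 7 did not. The growth factor receptor Csf1r stood at 0.80 ± 0.53, with PBS 6 above all 3 poly(I:C) libraries, and the transglutaminase subunit gene F13a1 at 1.08 ± 0.75. Adgre1 of mature macrophages reached 11.0 at most, in poly(I:C) 6. The list median was 0.50 without PBS 2 and 1.16 without PBS 6, and within the endings d and d_2 it was 0.07 and 1.51. Whether more cells carry these transcripts or each cell carries more cannot be told apart in bulk RNA, here and for every cell type below.

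Mast cell and basophil genes were also mostly positive, and some had groups that did not overlap. Of 12 tested genes 11 were positive, with a median of 0.95 (0.70 in the other genotypes), 6 were at an unadjusted p under 0.05, and 4 had all poly(I:C) libraries above all PBS libraries, beside 1.81% of all genes. Ms4a2, the beta chain of the IgE receptor, had 105, 61.9 and 126 with poly(I:C), against 31.3, 41.0, 52.6 and 19.6 with PBS, a difference of 1.43 ± 0.37. Il1rl1, the interleukin 33 receptor, had 118, 59.7 and 134 with poly(I:C), against 29.8, 59.6, 46.7 and 45.7 with PBS, a difference of 1.13 ± 0.39. Cpa3, the carboxypeptidase of mast cell granules, had 216, 218 and 239 with poly(I:C), against 139, 85.7, 181 and 105 with PBS, a difference of 0.86 ± 0.31. In these 3 genes poly(I:C) 7 also lay above every PBS library, for Il1rl1 only just. Also apart was the transporter gene Slc45a3, named after its values were seen, with 48.4, 42.3 and 42.9 with poly(I:C), against 11.0, 7.45, 32.1 and 6.53 with PBS. All 4 stayed apart when reads were thinned to 807686 per library, where 5 of the 12 genes were apart. Over the 11 members that reached a count of 10 in both groups, 10 were positive with a median of 0.86. Hdc, which makes histamine, had 179.8, 44.5 and 113 with poly(I:C), against 12.5, 14.9, 99.3 and 19.6 with PBS, a difference of 1.92 ± 0.66 with PBS 6 above poly(I:C) 7. The proteases Cma1 and Tpsb2, which mark mature mast cells, had at most 3.41 with poly(I:C) and 9.80 with PBS. The list median was 0.44 within the ending d and 1.38 within d_2, and between 0.811 and 1.198 without any 1 of the 7 libraries.

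**Figure D2:**
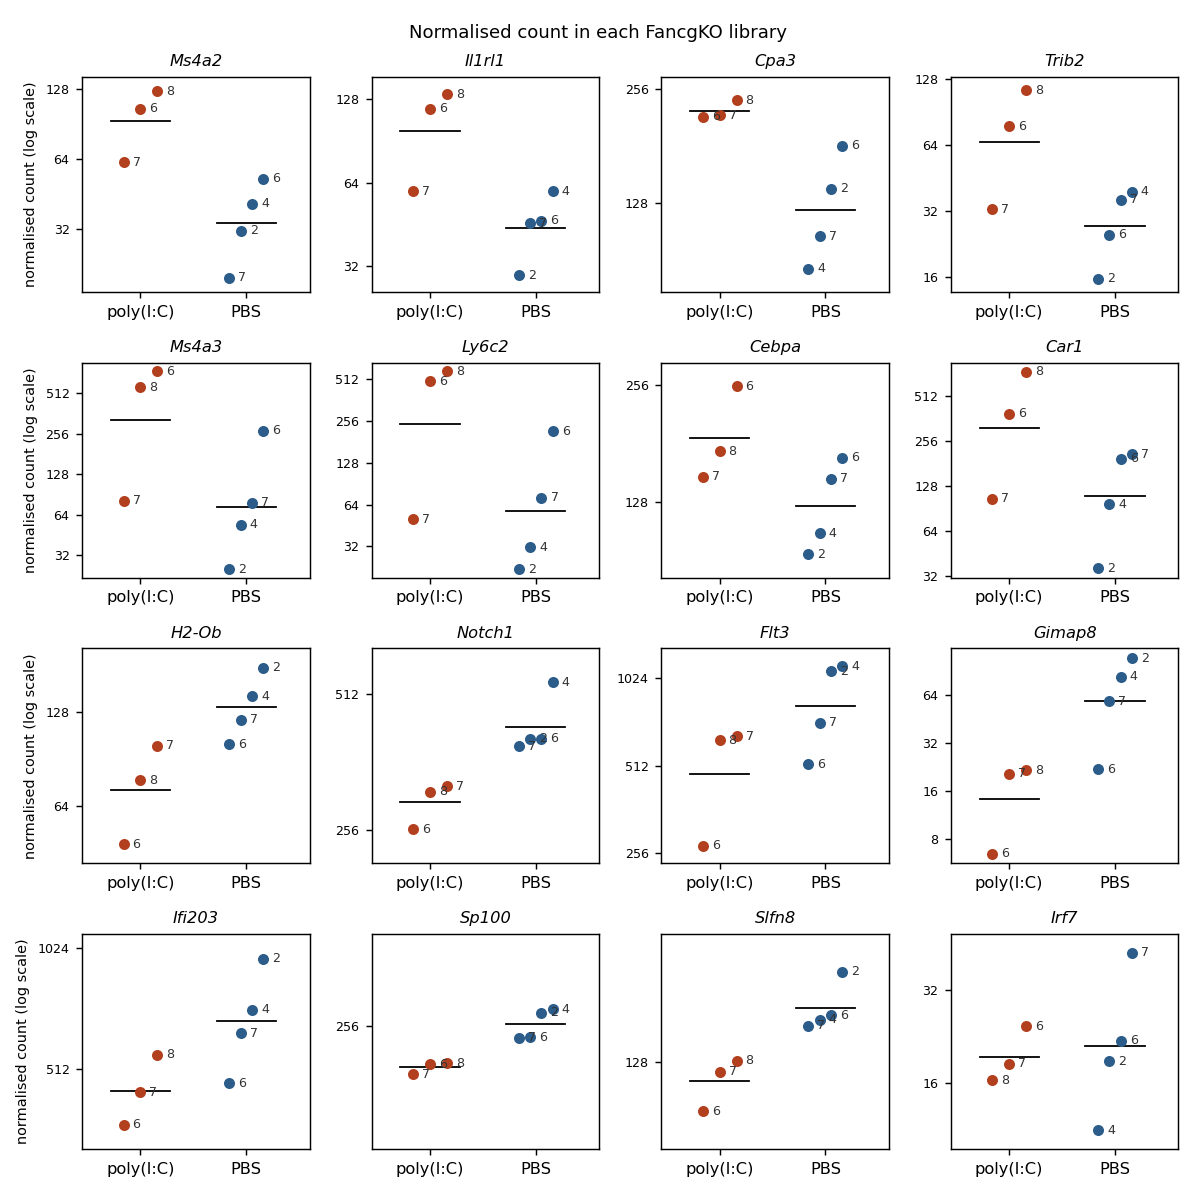
Normalised count on a log scale of selected genes in each FancgKO library, poly(I:C) left and PBS right, with replicate numbers beside the points and bars at geometric means. Ms4a2, Il1rl1 and Cpa3 have all poly(I:C) libraries above all PBS libraries, H2-Ob, Notch1, Gimap8, Sp100 and Slfn8 have them below, and Ms4a3, Ly6c2, Car1, Trib2, Cebpa, Flt3, Ifi203 and Irf7 overlap.

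Trib2, a pseudokinase that directs the degradation of C/EBP alpha, had 77.9, 32.6 and 114 with poly(I:C), against 15.7, 39.1, 24.8 and 35.9 with PBS, a difference of 1.25 ± 0.40, beside 2.44 in the other genotypes, where it was called. Only poly(I:C) 6 and 8 exceeded the PBS libraries. Cebpa, the myeloid transcription factor that Trib2 opposes, had 254, 149 and 173 with poly(I:C), against 94.0, 106, 167 and 147 with PBS, a difference of 0.58 ± 0.27. In the list of Tribbles and C/EBP genes 5 of 8 were positive with a median of 0.51, 4 of them at an unadjusted p under 0.05. That median was 0.26 without PBS 2, 0.28 without poly(I:C) 6 and 0.77 without poly(I:C) 7. Of the 8, 1 reached a count of 10 only with poly(I:C). Over the 7 that reached it in both groups, 4 were positive and 3 negative, with a median of 0.44. Trib2 lies on chromosome 12 at 15791727 to 15816922 of mm10 and Ms4a2 on chromosome 19 at 11615523 to 11623719. The sialyltransferase gene St8sia6, one of the genes most clearly called higher in the other genotypes, had 73.9, 76.0 and 141 with poly(I:C), against 32.9, 46.6, 46.7 and 32.7 with PBS, so that all poly(I:C) libraries lay above all PBS libraries. Ces2g, a carboxylesterase gene called there too, had 158, 48.8 and 155 with poly(I:C), against 31.3, 70.8, 49.7 and 65.3 with PBS, with poly(I:C) 7 inside the PBS range.

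Erythroid genes depended on which libraries were set against each other. Of 28 tested, 26 were positive with a median of 0.75 (1.26 in the other genotypes), and 5 were at an unadjusted p under 0.05, against 3.37% of all genes. Groups were apart with poly(I:C) higher for 0 of them and with poly(I:C) lower for 1, and on thinned reads for 1 and 0. Over all genes these shares were 1.81 and 2.44%. Over the 25 erythroid genes that reached a count of 10 in both groups 23 were positive with a median of 0.71. Car1, a carbonic anhydrase of early erythroid cells, had 389.5, 105 and 743 with poly(I:C), against 36.0, 96.9, 196 and 209 with PBS, a difference of 1.50 ± 0.77. Cpox, an enzyme of haem synthesis, had 181, 90.1 and 181 with poly(I:C), against 84.6, 106, 131 and 49.0 with PBS, a difference of 0.71 ± 0.30. Poly(I:C) 7 lay below PBS 6 and 7 for Car1 and below PBS 4 and 6 for Cpox, and PBS 2 was lowest of all for Car1. The water channel gene Aqp1 stood at 0.94 ± 0.58 and the blood group gene Ermap at 1.34 ± 0.78. Klf1, a defining transcription factor of the lineage, reached 35.5 in the poly(I:C) libraries, against 30.7 with PBS. The list median was 0.41 without PBS 2, -0.03 within the ending d and 1.61 within d_2. Megakaryocyte genes had 18 of 25 positive with a median of 0.08 (0.50 in the other genotypes), and none was at an unadjusted p under 0.05. Their median turned negative without PBS 2 (-0.13), without poly(I:C) 6 (-0.0028) or without poly(I:C) 7 (-0.06). The platelet chemokine gene Pf4 had 112, 96.6 and 56.5 with poly(I:C), against 9.40, 27.9, 124 and 75.1 with PBS, a difference of 1.06 ± 0.70 with PBS 6 above all 3 poly(I:C) libraries.

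Stem cell genes were mostly negative. Of 44 tested, 35 were negative with a median of -0.41 (-0.45 in the other genotypes), 11 of them at an unadjusted p under 0.05 and 2 with their groups apart, beside 2.44% of all genes. Cd34, a sialomucin of progenitors, had 1266, 1714 and 1523 with poly(I:C), against 1822, 1993, 1716 and 1869 with PBS, a difference of -0.31 ± 0.14 with all poly(I:C) libraries below all PBS libraries. The second gene apart was Txnip, a thioredoxin inhibitor named after its values were seen, with 653, 744 and 797 with poly(I:C), against 1004, 861, 824 and 951 with PBS. The transcription factor genes Mycn, with 50.4, 72.7 and 52.4 with poly(I:C), against 94.0, 82.0, 65.7 and 105 with PBS, and Erg, with 201, 283 and 204 with poly(I:C), against 354, 367, 273 and 238 with PBS, stood at -0.56 and -0.42, and in both poly(I:C) 7 lay above PBS 6. Hlf, a factor of long-term stem cells, had 190.3, 514 and 299 with poly(I:C), against 755, 695, 317 and 428 with PBS, a difference of -0.74 ± 0.42, and Mecom, given above, -0.87 ± 0.41. Poly(I:C) 6 and 8 were lowest for Mecom and Hlf, and poly(I:C) 7 lay within the PBS range for both. Kit stood at -0.12 ± 0.13. The list median was -0.26, -0.60 and -0.17 without poly(I:C) 6, 7 and 8, and poly(I:C) 7 set against PBS 7 gave 0.04.

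Lymphoid progenitor genes had the most negative median of all the lists when all 7 libraries were used. Other lists were more negative in some settings. Among them were the NF-kB and inflammation list without poly(I:C) 6, at -0.40, and immediate early genes without PBS 2, at -0.59. Without PBS 4 the B cell list was at -0.54, against -0.41 for the lymphoid list. Within the ending d the lymphoid median was -0.20. Lists more negative there included the T and NK cell list at -0.40, immediate early genes at -0.37 and the B cell list at -0.35. Of 28 tested, 26 were negative with a median of -0.57 (-1.10 in the other genotypes, where 16 were called lower, against 8.61% of all genes), 7 were at an unadjusted p under 0.05 and 4 had their groups apart, against 3.86 and 2.44% of all genes. In FancgKO 4 of the 28 reached the filter's level of 10 only with PBS, where they were high, and the counts just given are over all 28. Gimap7, apart below, is among those that reached it only with PBS. Over the 23 that reached a count of 10 in both groups 21 were negative with a median of -0.46. Notch1, the receptor that starts T cell commitment, had 257, 320.2 and 311 with poly(I:C), against 407, 542, 408 and 392 with PBS, a difference of -0.55 ± 0.20. Gimap8, a GTPase gene of lymphocytes, had 6.49, 20.6 and 21.6 with poly(I:C), against 109.7, 83.8, 21.9 and 58.8 with PBS, a difference of -1.96 ± 0.57. Both had all poly(I:C) libraries below all PBS libraries, although for Gimap8 poly(I:C) 8 and PBS 6 nearly met and on thinned reads its groups overlapped. The other 2 genes apart were Lck, with 6.49, 17.4 and 12.5 with poly(I:C), against 25.1, 33.5, 23.4 and 22.9 with PBS, and Gimap7, with 0.50, 3.26 and 3.79 with poly(I:C), against 12.5, 13.0, 5.84 and 6.53 with PBS, both low in counts and named after their values were seen. Flt3, the cytokine receptor of lymphoid-primed progenitors, had 272, 647 and 626 with poly(I:C), against 1084, 1127, 519 and 719 with PBS, a difference of -0.78 ± 0.31. Satb1, a chromatin organiser, had 297, 541 and 602 with poly(I:C), against 1178, 913, 555 and 549 with PBS, a difference of -0.72 ± 0.29, and Dntt, which adds bases to antigen receptor joints, had 57.9, 192 and 314 with poly(I:C), against 650.1, 911, 148 and 235 with PBS, a difference of -1.31 ± 0.68. PBS 2 and 4 were highest for all 3 and PBS 6 lay among the poly(I:C) libraries. The co-activator gene Maml2 of Notch signalling had 37.5, 63.0 and 52.4 with poly(I:C), against 100.2, 91.3, 74.5 and 88.2 with PBS, a difference of -0.81 ± 0.23 with its groups apart. The lymphoid list median was -0.26 without poly(I:C) 6 and -0.38 without PBS 2. Lists of mature lymphoid and dendritic cells were small and unstable. The B cell list had 5 of 8 negative with a median of -0.44, between -0.80 without poly(I:C) 8 and -0.20 without PBS 2. Of these 8, 2 reached a count of 10 only with PBS and 2 in neither group. Over the 4 that reached it in both, 2 were negative and 2 positive, with a median of -0.19. The dendritic cell list had 4 of 8 negative with -0.07, which was 0.06 without poly(I:C) 6 and 0.0073 without PBS 4. The T and NK cell list had 2 of 5 negative with a median of 0.20 that was -0.10 without poly(I:C) 8 and -0.06 over the 3 members that reached a count of 10 in both groups.

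H2-Ob, a subunit of the regulator of peptide loading on MHC class II, was named because it is among the genes most clearly called lower in the other genotypes. It had 48.4, 99.9 and 77.4 with poly(I:C), against 177, 143, 101 and 121 with PBS, a difference of -0.87 ± 0.28 beside -1.24 there, and its groups were apart, with poly(I:C) 7 just below PBS 6. It lies on chromosome 17 at 34238903 to 34254414. Retreg1, a receptor for autophagy of the endoplasmic reticulum, had 138, 164 and 165 with poly(I:C), against 352, 255, 189.9 and 196 with PBS and was apart too. The zinc finger gene Zfp608 had 212, 376 and 229 with poly(I:C), against 457, 489.9, 321 and 366 with PBS, where poly(I:C) 7 exceeded PBS 6 and 7. Of 9 tested MHC class II genes 5 were positive, with a median of 0.16 that was -0.06 without poly(I:C) 8 and -0.0085 without PBS 2.

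**Figure D3:**
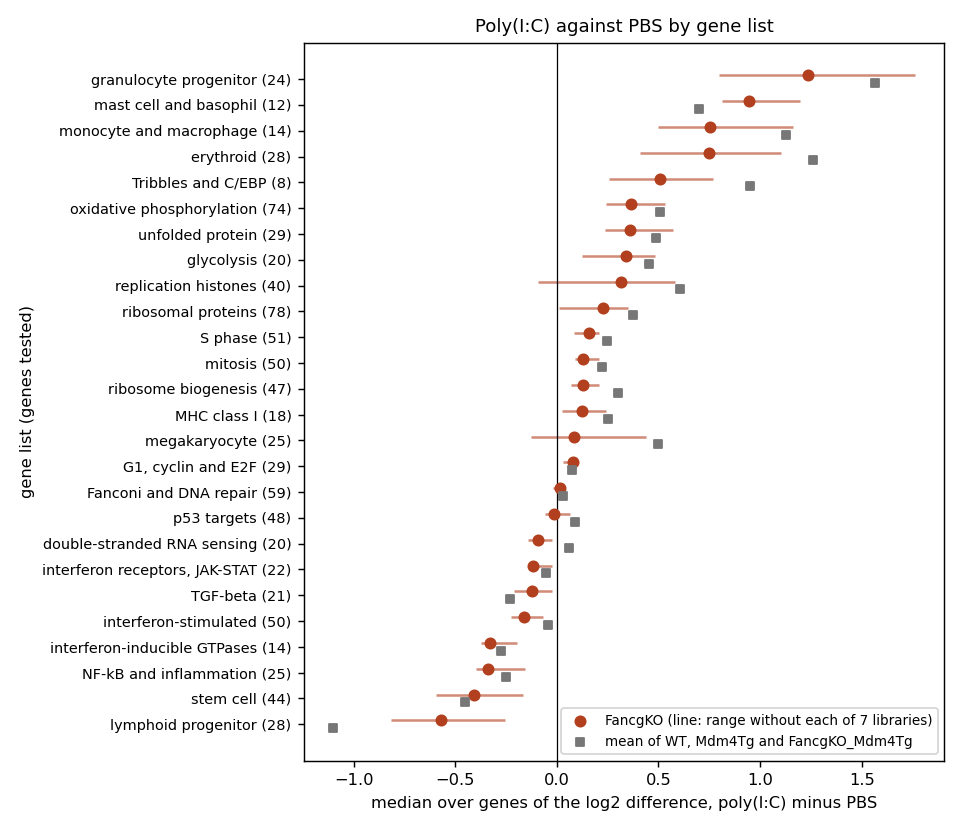
Median log2 difference of poly(I:C) minus PBS over the genes of each list, in FancgKO (circles, with the range when each of the 7 libraries is left out) and averaged over WT, Mdm4Tg and FancgKO_Mdm4Tg (squares). Myeloid, mast cell and erythroid lists lie right of 0 and stem cell and lymphoid lists left of it in both, while interferon lists lie near or left of 0.

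Interferon-stimulated genes had mostly negative differences. Of 50 tested 34 were negative, with a median of -0.16 (-0.04 in the other genotypes), 1 was higher and 5 were lower at an unadjusted p under 0.05, and 3 had all poly(I:C) libraries below all PBS libraries, against 2.44% of all genes. The 16 positive genes reached 2.70 and the negative ones -0.95. Ifi203, Sp100, Oas2 and Irf7, named next, all had a negative difference, and 5 positive members are given with the promoter matches below. Relative to the PBS mean, the median level of the list was -0.092, -0.154 and -0.166 in poly(I:C) 6, 7 and 8. All of these lay inside the PBS range, from -0.168 in PBS 6 to 0.190 in PBS 7. The direction depended on the pair: poly(I:C) 6 against PBS 6 gave 32 of 50 higher with a median of 0.09, and poly(I:C) 7 against PBS 7 gave 40 of 50 lower with -0.34. Ifi203, a nuclear DNA-binding protein gene, had 374, 449 and 557 with poly(I:C), against 966, 721, 473 and 630.5 with PBS, a difference of -0.57 ± 0.26. Sp100, a component of nuclear bodies, had 211, 201 and 212 with poly(I:C), against 274, 279, 242 and 242 with PBS, a difference of -0.31 ± 0.14 with its groups apart. Oas2, a double-stranded RNA-activated synthetase, had 31.5, 31.5 and 16.3 with poly(I:C), against 42.3, 27.9, 61.4 and 84.9 with PBS, a difference of -0.95 ± 0.41. Irf7, a transcription factor that amplifies the response, had 24.5, 18.4 and 16.3 with poly(I:C), against 18.8, 11.2, 21.9 and 42.5 with PBS, a difference of -0.11 ± 0.43. Irf7 had the other sign without PBS 7, at 0.21. The interferon list median was -0.07 without PBS 7 and -0.11 without poly(I:C) 8. Slfn8, of the interferon-inducible Schlafen family, had 99.4, 122 and 129 with poly(I:C), against 202, 158, 162 and 154 with PBS, a difference of -0.53 ± 0.15 with its groups apart. The 20 genes of double-stranded RNA sensing had a median of -0.09, which was -0.03 without PBS 7 and -0.04 without poly(I:C) 8, with Eif2ak2, the kinase PKR, at 193, 213 and 220.4 with poly(I:C), against 230.3, 283, 228 and 222 with PBS and its groups apart, and Ddx58, which encodes RIG-I, at -0.37 ± 0.24. The 14 interferon-inducible GTPases had a median of -0.33, 12 negative and 3 of these at an unadjusted p under 0.05, while Gbp3 was 1 of the 2 positive ones, at 0.44 ± 0.26. The GTPase median was -0.19 without poly(I:C) 7 and -0.15 over the 10 members that reached a count of 10 in both groups. Of the 14, 3 reached that count only with PBS.

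Receptor and signalling genes were mixed. The interferon receptor and JAK-STAT list had 14 of 22 negative with a median of -0.12, which was -0.02 without PBS 7, -0.08 without PBS 4, and -0.07 and -0.04 without poly(I:C) 6 and 8. Ifngr1, a chain of the interferon gamma receptor, had 578, 228 and 668 with poly(I:C), against 191, 278, 342 and 258 with PBS, a difference of 0.76 ± 0.29 with poly(I:C) 7 inside the PBS range. Ifnar1, a chain of the type I receptor, had 188, 189.9 and 215 with poly(I:C), against 216, 261, 212 and 252 with PBS, a difference of -0.25 ± 0.13. Stat4, the interleukin 12 signal transducer, had 52.9, 74.9 and 58.0 with poly(I:C), against 94.0, 123, 78.9 and 88.2 with PBS, a difference of -0.62 ± 0.20 with its groups apart, though not on thinned reads, and a call in the other genotypes. MHC class I genes had 12 of 18 positive with a median of 0.12, which was 0.03 without poly(I:C) 6 or without PBS 2, 0.20 without poly(I:C) 8 and 0.24 without PBS 7, among them the immunoproteasome subunit Psmb9 at 0.38 ± 0.18 and the light chain B2m at 0.26 ± 0.21. In the NF-kB and inflammation list 20 of 25 were negative, with a median of -0.34 that was -0.16 without poly(I:C) 8. Of the 25, 4 reached a count of 10 only with PBS. Over the 20 that reached it in both groups, 16 were negative with a median of -0.25. Nfkbia, the feedback inhibitor, had 139, 66.2 and 69.8 with poly(I:C), against 51.7, 117, 159 and 154 with PBS. The time between treatment and sampling is not given in the labels.

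Promoter letters were searched in the interferon and unfolded protein lists, since each has a known common element. In RefSeq promoters of 300 bases (GRCm38.p6, 250 before to 50 after the start), the interferon-response letters GAAANNGAAA were found on either strand in 16 of 34 tested interferon-stimulated genes with a promoter (47.1%), against 3.89% of 8871 tested genes. The letters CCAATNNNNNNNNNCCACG of the endoplasmic reticulum stress element were found in 8 of 26 unfolded protein genes (30.8%), against 0.16% of tested genes. A match is a description of letters, not proof of a working site. The promoter of Ifi203 lies at chr1:173942443-173942742 on the minus strand and that of Calr at chr8:84846882-84847181 on the minus strand, both printed in the direction of the gene with the match in capitals, for Calr on the opposite strand. They are shown as 1 example of each match among the named genes.
Ifi203: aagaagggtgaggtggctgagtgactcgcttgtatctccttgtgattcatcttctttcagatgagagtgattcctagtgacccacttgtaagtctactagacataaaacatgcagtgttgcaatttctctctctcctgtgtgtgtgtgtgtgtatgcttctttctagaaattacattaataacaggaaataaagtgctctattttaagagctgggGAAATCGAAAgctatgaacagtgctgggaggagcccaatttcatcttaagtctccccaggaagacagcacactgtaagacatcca
Calr: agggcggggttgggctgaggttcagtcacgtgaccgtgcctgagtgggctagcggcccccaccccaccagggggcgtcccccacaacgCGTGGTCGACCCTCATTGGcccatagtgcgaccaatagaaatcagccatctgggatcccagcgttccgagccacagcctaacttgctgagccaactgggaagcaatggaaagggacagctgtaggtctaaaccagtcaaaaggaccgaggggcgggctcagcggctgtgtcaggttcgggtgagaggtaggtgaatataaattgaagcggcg
The 16 interferon genes with the match had a median of -0.14 in FancgKO, 11 negative and 5 positive, and the 8 unfolded protein genes with the other match had a median of 0.44, all 8 positive. The 5 positive interferon genes were Oas1c at 0.75 ± 0.44, Oas1g at 0.62 ± 0.62, Ifitm2 at 0.51 ± 0.27, Ifitm3 at 0.24 ± 0.18 and Bst2 at 0.17 ± 0.31.

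Unfolded protein genes had 24 of 29 positive with a median of 0.36 (0.49 in the other genotypes, where 17 were called higher, against 8.75% of all genes), 6 of them at an unadjusted p under 0.05. Calr, the calcium-binding chaperone calreticulin, which the granulocyte list also holds, had 3878, 1889 and 2717 with poly(I:C), against 1234, 1440.0, 2905 and 1914 with PBS, a difference of 0.61 ± 0.29. Pdia3, a disulfide isomerase that works with it, had 1661, 867 and 1332 with poly(I:C), against 609, 861, 1103 and 742 with PBS, a difference of 0.62 ± 0.24. Poly(I:C) 6 was highest for both, and PBS 6 lay above poly(I:C) 7 for both and above poly(I:C) 8 for Calr. Edem1, which hands misfolded glycoproteins to degradation, had 484, 356 and 499.9 with poly(I:C), against 273, 328, 369.6 and 291 with PBS, a difference of 0.50 ± 0.15. P4hb, another isomerase, stood at 0.70 ± 0.29, the degradation adaptor Selenos at 0.72 ± 0.29 and the chaperone Hspa5 at 0.50 ± 0.37. Sec23b, a coat subunit of the vesicles that leave the endoplasmic reticulum, had 259, 219 and 261 with poly(I:C), against 150.4, 147, 219 and 157 with PBS, a difference of 0.56 ± 0.17 with its groups apart. The list median was 0.24 without poly(I:C) 6 and 0.57 without poly(I:C) 7, and 0.16 within the ending d and 0.62 within d_2.

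Other genes of biosynthesis were positive in nearly all members and small in size. Oxidative phosphorylation subunits had 71 of 74 positive with a median of 0.36, 9 at an unadjusted p under 0.05, and 44 of them called higher in the other genotypes, against 3.37 and 8.75% of all genes. Atp5e, a subunit of the ATP synthase, had 184, 130.2 and 179.8 with poly(I:C), against 64.2, 89.4, 124 and 131 with PBS, a difference of 0.72 ± 0.24 with PBS 7 just above poly(I:C) 7. Glycolysis and pentose phosphate enzymes had 18 of 20 positive with a median of 0.34, led by the transaldolase Taldo1 at 0.59 ± 0.22. Cytosolic ribosomal proteins had 77 of 78 positive with a median of 0.23, and ribosome biogenesis genes 45 of 47 with 0.13. The ribosome biogenesis median was 0.07 without poly(I:C) 6 and 0.21 without poly(I:C) 7, and 32 of the 47 were lower in poly(I:C) 7 than in PBS 7. Within the ending d the ribosomal proteins had a median of -0.07 and oxidative phosphorylation 0.09, and PBS 2 was the lowest library for both lists. The ribosomal protein median was 0.01, 0.34 and 0.35 without PBS 2, 6 and 7 and 0.08 without poly(I:C) 6, and the glycolysis median was 0.12 without PBS 2 and 0.17 without poly(I:C) 6.

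Cell division genes were also mostly positive. S phase genes had 46 of 51 positive with a median of 0.16, 3 at an unadjusted p under 0.05 and 4 apart, against 3.37 and 1.81% of all genes, although none of the 51 was apart on thinned reads. Without PBS 2 the median was 0.08. Cdc45, a subunit of the active replicative helicase, had 159.8, 129 and 124 with poly(I:C), against 72.0, 89.4, 104 and 108 with PBS, a difference of 0.56 ± 0.20 with its groups apart. Rrm2, the ribonucleotide reductase subunit, had 416, 263 and 462 with poly(I:C), against 218, 285, 302 and 206 with PBS, a difference of 0.57 ± 0.24. E2f8, a repressor in the E2F family and called higher in the other genotypes, had 322, 294 and 370.2 with poly(I:C), against 230.3, 216, 267 and 252 with PBS, a difference of 0.44 ± 0.14 with its groups apart, though not on thinned reads. The inhibitor of CDK4 and CDK6 Cdkn2c had 74.4, 63.0 and 76.2 with poly(I:C), against 40.7, 50.3, 59.9 and 42.5 with PBS, a difference of 0.56 ± 0.23 and again apart, beside 0.01 elsewhere. Mitosis genes had 38 of 50 positive with a median of 0.13, with Cdk1, the mitotic kinase, at 0.33 ± 0.15. The mitosis median was 0.20 without PBS 6, 0.21 without poly(I:C) 7, and 0.09 without PBS 2 or without poly(I:C) 6. Within the ending d it was 0.02, with 26 genes higher and 24 lower. In poly(I:C) 7 against PBS 7, 30 of the 50 were lower. Replication-dependent histones were positive in 40 of 40 genes with a median of 0.32, 0 of them at an unadjusted p under 0.05. Their median was 0.42 in poly(I:C) 7 relative to the PBS mean and 0.80 in PBS 7, it was -0.10, 0.49 and 0.58 without PBS 2, 6 and 7 and 0.18 without poly(I:C) 6, and within the ending d it was -0.16. Polyadenylated RNA holds only a part of these transcripts.

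**Figure D4:**
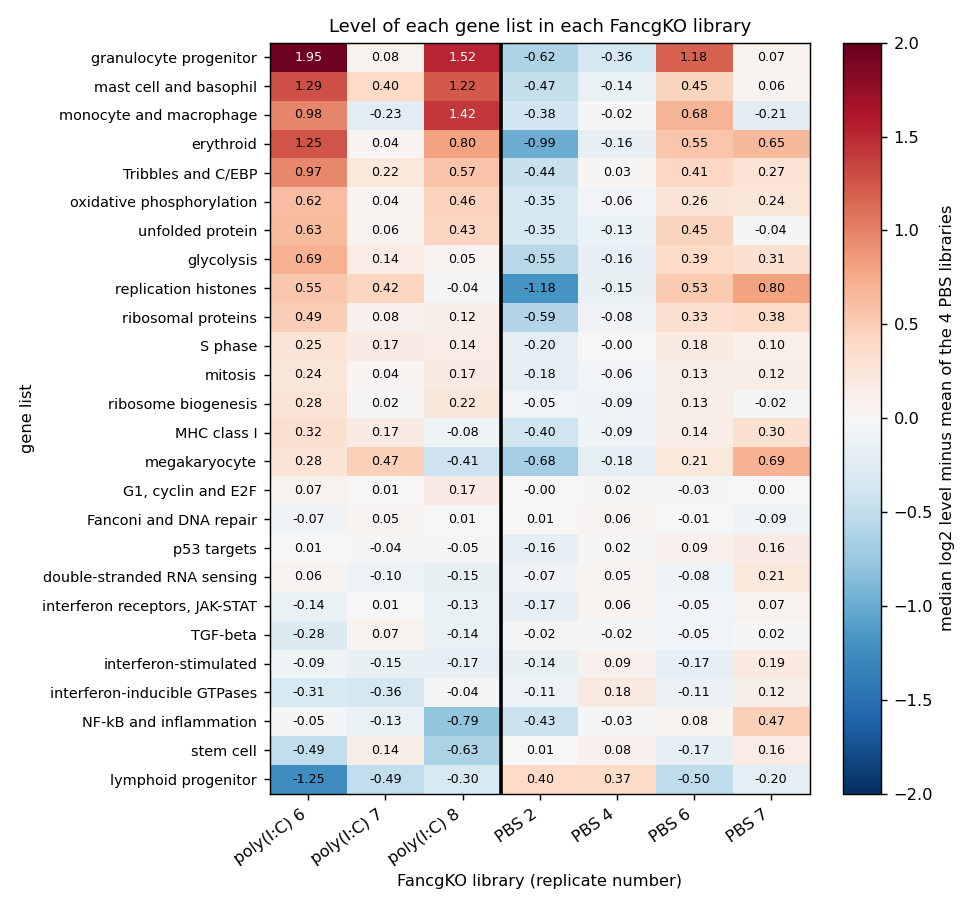
Median log2 level of the genes of each list in each FancgKO library relative to the mean of the 4 PBS libraries, with poly(I:C) left of the line and PBS right of it. Poly(I:C) 6 and 8 and, less so, PBS 6 are red for the myeloid lists at the top, poly(I:C) 7 lies between -0.23 and 0.40 there, and PBS 2 is the lowest library for histones and ribosomal proteins.

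Genes of the p53 pathway, which arrests or kills cells with damaged DNA, were split. Of 48 tested targets 25 were negative and 23 positive, with a median of -0.02 (0.09 in the other genotypes), 1 each way at an unadjusted p under 0.05. The median was between -0.06 and 0.06 when single libraries were left out. Cdkn1a, the cell cycle inhibitor p21, had 33.0, 32.6 and 33.0 with poly(I:C), against 23.5, 57.8, 54.0 and 26.1 with PBS, a difference of -0.18 ± 0.44 that was 0.03 without PBS 4. Mdm2, the ligase that p53 induces against itself, had 223, 231 and 217 with poly(I:C), against 255, 259, 251 and 242 with PBS, a difference of -0.17 ± 0.13 with its groups apart, though not on thinned reads. Mdm4, its partner, had 785, 931 and 907 with poly(I:C), against 1142, 1293, 895 and 934 with PBS, a difference of -0.27 ± 0.14, and Trp53 itself stood at 0.19 ± 0.18. Sesn1, a stress-induced target, had 179.8, 225 and 201 with poly(I:C), against 298, 324, 204 and 278 with PBS, a difference of -0.43 ± 0.16, and Trp53inp1 stood at -0.66 ± 0.33. PBS 6 was the lowest PBS library for Sesn1 and Trp53inp1 and overlapped the poly(I:C) libraries.

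Fanconi and other DNA repair genes had 31 of 59 positive and 28 negative, with a median of 0.02, beside 0.02 over all genes and between -0.02 and 0.03 when single libraries were left out, and 1 each way at an unadjusted p under 0.05. Blm, the helicase that works beside the Fanconi pathway, had 354, 361 and 408 with poly(I:C), against 323, 315, 286 and 248 with PBS, a difference of 0.36 ± 0.13 with its groups apart. Trp53bp1, which steers breaks to end joining, had 254, 322 and 213 with poly(I:C), against 385, 333, 272 and 385 with PBS, a difference of -0.39 ± 0.17. Fancl, the catalytic subunit of the core complex, had 43.0, 48.8 and 66.0 with poly(I:C), against 72.0, 68.9, 86.2 and 52.3 with PBS, a difference of -0.40 ± 0.23. Rad52, a recombination mediator, stood at -0.43 ± 0.23 and Prkdc, the kinase of end joining, at -0.20 ± 0.11, with all poly(I:C) libraries of Prkdc below all PBS libraries, though not on thinned reads. Fancg stood at 0.38 ± 0.25.

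TGF-beta genes had 15 of 21 negative with a median of -0.12, which was -0.02 without poly(I:C) 6 and -0.21 without poly(I:C) 7. Of the 21, 1 was apart with poly(I:C) higher and 3 with poly(I:C) lower, against 1.81 and 2.44% of all genes. In FancgKO 2 of the 21 reached a count of 10 only with PBS. Skil, a repressor of SMAD signalling, had 93.9, 104 and 99.8 with poly(I:C), against 125, 164, 137 and 144 with PBS, a difference of -0.51 ± 0.18 with its groups apart. Tgfbr3, the co-receptor betaglycan, had 198, 237 and 190.4 with poly(I:C), against 109.7, 139.7, 145 and 183 with PBS, a difference of 0.54 ± 0.25 with its groups apart in the other direction. Immediate early genes followed the name ending: their median level was above 0 in all 4 libraries ending in d and below 0 in all 3 ending in d_2, relative to the PBS mean. Egr1, a transcription factor induced within minutes of stimulation or handling, had 129, 488 and 24.3 with poly(I:C), against 18.8, 292, 367 and 412 with PBS, and Hspa1a, a heat shock chaperone, had 268, 143 and 1.14 with poly(I:C), against 23.5, 3.73, 48.2 and 0 with PBS. Egr1 was lowest in PBS 2 and poly(I:C) 8 and highest in poly(I:C) 7, and for Hspa1a poly(I:C) 8 and PBS 7 were at or near 0. The list median was -0.03, and between -0.59 and 0.84 when single libraries were left out.

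Outside these lists, the positive genes with the smallest p-values were led by Ubl5, a ubiquitin-like protein gene that takes part in splicing. It had 119.9, 101 and 108 with poly(I:C), against 31.3, 57.8, 74.5 and 68.6 with PBS, a difference of 0.98 ± 0.24 with its groups apart, on chromosome 9 at 20642878 to 20647140. Tex261, a membrane protein gene, had 203, 201 and 218 with poly(I:C), against 147, 127, 153 and 137 with PBS, a difference of 0.56 ± 0.15, and was apart too. Zbtb16, the transcription factor PLZF, had 55.9, 59.7 and 50.5 with poly(I:C), against 29.8, 18.6, 35.1 and 35.9 with PBS, a difference of 0.91 ± 0.28 with its groups apart. Xylt1, which starts the sugar chains of proteoglycans, stood at 0.55 ± 0.15, Sptlc2, of sphingolipid synthesis, at 0.47 ± 0.14, and Gzf1, a zinc finger gene, at 0.61 ± 0.18. Arhgap19, Gpr160 and Tmem156 stood at 0.75, 0.81 and 1.69. All 12 positive genes chosen by p-value were positive in the other genotypes as well, Gzf1 only by 0.02.

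The negative genes with the smallest p-values included the ribosomal RNA gene. CT010467.1 had 5745, 22432 and 12909 with poly(I:C), against 96807, 157689, 13783 and 84170.0 with PBS, a difference of -2.45 ± 0.67. Lars2, the leucine ligase of mitochondria, had 494, 560.1 and 492 with poly(I:C), against 2486, 1509, 641 and 2133 with PBS, a difference of -1.55 ± 0.41, beside 0.08 in the other genotypes. Gm15564 had 82.9, 109 and 116 with poly(I:C), against 783, 401, 145 and 392 with PBS, a difference of -1.84 ± 0.56, and the protease gene Usp43 had 30.0, 107 and 75.1 with poly(I:C), against 526, 1006, 87.6 and 421 with PBS, a difference of -2.56 ± 0.74. In all 4, PBS 6 was the lowest PBS library, and for Lars2 and Gm15564 it still lay above every poly(I:C) library. The part of ribosomal RNA carry-over in these values was not tested. Away from these, Aig1, a membrane hydrolase gene, had 65.9, 93.3 and 78.5 with poly(I:C), against 147, 123, 114 and 118 with PBS, a difference of -0.66 ± 0.19 with its groups apart. Myof, a membrane repair protein gene, had 22.0, 31.5 and 28.8 with poly(I:C), against 111, 91.3, 39.4 and 49.0 with PBS, a difference of -1.27 ± 0.36 and also apart, though not on thinned reads. Thsd1 stood at -1.02 ± 0.28, Lsp1, an actin-binding protein gene of leukocytes, at -0.88 ± 0.26 and Gm19590 at -1.08 ± 0.32.

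Genes whose difference in FancgKO was farthest from that in the other genotypes, by p-value, did not pass either. Grb10, an imprinted adaptor gene of growth factor receptors, stood at 0.10 in FancgKO and 1.31 in WT, a difference between them of -1.21 ± 0.35 (SE; limma adjusted p = 1.0). Hip1, of clathrin coats, stood at 0.32 in FancgKO and -0.56 in the mean of the others, a difference of 0.88 ± 0.27 (SE; limma adjusted p = 1.0). Lars2, given above, differed by -1.63 ± 0.49. Fam222b had 54.9, 64.0 and 48.9 with poly(I:C), against 43.9, 41.0, 26.3 and 26.1 with PBS, apart in FancgKO at 0.72, against -0.38 in WT. Camk2a and Pde5a stood at -0.07 and 0.06 in FancgKO, against -0.93 and 0.99 in the mean of the other genotypes. Trib2, at 1.25 in FancgKO against 2.44 in the others, differed by -1.19 ± 0.48, and Il1rl1 by -1.11 ± 0.46, both with a limma adjusted p of 1.0.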

How the data were processed

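Polyadenylated RNA of sorted LSK cells was sequenced on a NextSeq 500 from CATS RNA-seq Kit v2 libraries, per the labels' protocols. The submitters' processing notes name STAR and mm10, with no version. The deposited values are a normalised signal per gene, that is counts the authors divided by a factor per library. All values (100.0%) were whole multiples of 1 read within a relative tolerance of 1e-06, so reads were recovered and their number per library ranged between 807686 and 8229715. Counting error limits genes with few reads. Symbols came from the file for 16217 genes and from GENCODE M21 for 10006, which also gave coordinates, and 44 had none. Strand of counting is not given in the sources used here, so genes overlapping on opposite strands may share reads.

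log2(normalised count + 1) was fitted with limma 3.58.1 in R 4.3.3, as 8 group means over 24 libraries with a trend and Benjamini-Hochberg adjustment at 0.05. Alternatives were edgeR 4.0.16 and DESeq2 1.42.0 on recovered reads, other pseudocounts, filters, scalings and covariates, and leaving out each library. The script was tested on simulated data. Groups are called apart where no poly(I:C) library overlaps a PBS library.

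The compared groups and the 32 gene lists (933 genes tested) were chosen with earlier results of these data known. Named genes, at a mean of at least 50 in either FancgKO group, were the 12 per direction with the smallest p in FancgKO, the 6 per direction in the mean of the other genotypes, the 5 in each test between genotypes, up to 5 per list and 13 genes set by name at any level. Bst2, Gimap7, Hlf, Hspa5, Ifitm2, Ifitm3, Lck, Mecom, Mpo, Oas1c, Oas1g, S100a8, Slc45a3 and Txnip fall outside that rule and were chosen after their values were seen. Values within name endings and replicate numbers, and over members reaching a count of 10 in both groups, were also added after seeing the data. Some genes are not reported here.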

Additional observations from a re-analysis of the deposited data

Results flagged for a closer look

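In 8 of 112 genes checked, all with values in the report, 1 of the 4 PBS libraries lay far from the other 3. Its gap to the nearest, as a share of the range, was above Dixon's critical value for 4 samples. Chance flags about 1 in 20 groups. PBS 6 was the high library in 5 of them, with a normalised count of 239.6 for Arhgap19, 52.6 for Fcgr3, 99.3 for Hdc, 1.46 for S100a8, which is 1 read, and 219 for Sec23b. PBS 4 was high for Eif2ak2, at 283, and for Notch1, at 542. PBS 2 was high for Prkdc, at 771.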

How the results depend on the processing

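The count of genes called for poly(I:C) in FancgKO was 0 under all alternatives run except without the low-value filter, where limma called 2, the microRNA gene Mir6962 and Gm26585, both higher. The difference from WT and from the other genotypes was called for 0 genes throughout. Samples with the same number were not shown to be paired, since deviations correlated at 0.45 for the 2 libraries numbered 6 and 0.053 for those numbered 7. With a replicate block FancgKO still had 0 calls. The 2192 genes called in the mean of the other genotypes became 3633 with the replicate block, 3929 with the replicate block and only FancgKO numbers 6 and 7, 3620 with the name ending as a covariate, 4041 with array weights and 1267 on reads thinned to the shallowest library. Leaving out 1 library gave 605 (without FancgKO_Mdm4Tg poly(I:C) 8) to 2862 (without WT PBS 6), with 1362 without WT poly(I:C) 6, and 1291 and 1408 without Mdm4Tg poly(I:C) 7 and 8. The cause was not tested. At an unadjusted p under 0.05, FancgKO held between 251 and 1929 genes. Of 987 values over 43 named genes, 20 had the other sign, in Xist, Ly6a, Cdkn1a and Irf7. Of 709 list medians 45 had the other sign, in 10 of 32 lists, among them erythroid genes (-0.03), histones (-0.16) and ribosomal proteins (-0.07) with only FancgKO libraries ending in d, a setting added after seeing the data. Depth limits low genes most in PBS 7.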
